A study of Homo sapiens with 8 samples.

Results

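UTP18 and 9 further factors of ribosome biogenesis were followed in DLD-1 cells, a line of human colorectal adenocarcinoma cells, after transfection with a miR-143 duplex. The group miR-143 held 4 cultures that received 50 nM of the duplex by lipofection, and the group mock held 4 cultures that were mock transfected. All 8 cultures were harvested at 24 h and measured on 1 Affymetrix array each. The study describes the 4 cultures of a group as biological replicates. All cultures came from 1 cell line, and no culture with a control duplex is among the arrays, so an effect of the miR-143 sequence and one of transfecting any duplex cannot be told apart. The 10 genes were UTP18, UTP3, UTP14A, UTP15, UTP20, WDR43, NOP56, NOP58, FBL and NCL. UTP18 was chosen by its lower level in the miR-143 arrays of this same comparison, and it is also on the study's list of putative miR-143 targets, which was drawn from these arrays. The other genes were added for their role, in order to ask whether the fall of UTP18 was shared by other factors of small subunit processing. Members were measured by probe sets annotated to 1 gene only. By this rule 9 of the 10 genes had a value, out of 19752 genes in all, through 13 of 41091 probe sets. NOP56 had none, because its 2 probe sets are also annotated to small RNA genes, so it gets no value here.

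Ribosomes are assembled in the nucleolus, where a long precursor of ribosomal RNA is transcribed, modified, cut and folded onto ribosomal proteins. The first steps of the small subunit take place in a large particle, the small subunit processome, which gathers around the U3 small nucleolar RNA. Its proteins enter largely as modules. The UTP-A module, which includes UTP15 and WDR43, binds the young transcript first, and the UTP-B module, which includes UTP18, connects it with the U3 particle. FBL, NOP56 and NOP58 are core proteins of the box C/D particles that carry U3 and guide methylation of ribosomal RNA. Dividing cancer cells make ribosomes at a high rate, and the transcription factor MYC, which binds the E-box sequence CACGTG, is known to drive many of these genes. A microRNA lowers messenger RNAs that pair with its seed, the bases at positions 2 to 8.

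The transfected duplex mimics mature miR-143, whose guide strand is shown because its seed (capitals) is what a direct target would pair with. It lies on chromosome 5 (GRCh38.p14, chr5:149428978-149428998, plus strand), and the DNA letters complementary to the seed are TCATCTC.
miR-143-3p: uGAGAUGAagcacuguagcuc
Promoter sequence is shown for the members that share an E-box, as a feature that the choice of genes did not use. RefSeq promoters (GRCh38.p14, 250 bases before to 50 after the start of a gene) matched 9 of the 10 members. CACGTG, which reads the same on both strands, was found in 5 of these 9, namely UTP18, WDR43, UTP20, FBL and UTP14A, in 32.3% of 93 promoters of other ribosome biogenesis genes, and in 7.26% of 35116 promoters in all. UTP18 held it at 2 places. A second motif, CCGGAAG on either strand, the core of sites for ETS factors, was found in UTP18, UTP3 and FBL, in 45.2% of the 93 promoters and in 10.3% of all. Matches of letters do not show that a factor binds. The E-boxes (capitals, within 30 bases each, 5′ to 3′ on the strand of the gene) were as follows.
UTP18, chr17:51260445-51260474, plus strand: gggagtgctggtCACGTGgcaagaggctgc
UTP18, chr17:51260538-51260567, plus strand: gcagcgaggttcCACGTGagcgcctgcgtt
WDR43, chr2:28894658-28894687, plus strand: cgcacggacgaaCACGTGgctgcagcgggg
UTP20, chr12:101280083-101280112, plus strand: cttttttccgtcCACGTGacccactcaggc
FBL, chr19:39846356-39846385, minus strand: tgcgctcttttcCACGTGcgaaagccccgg
UTP14A, chrX:129905914-129905943, plus strand: accttgggcCACGTGgaaaccaggggccag
Counted from 1 at the first transcribed base, the E-boxes of WDR43, UTP18 and FBL began at base 4, 5 and 7, and that of UTP20 at base −10. The other UTP18 site began at base −89 and that of UTP14A at base −241.

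Array values are log2 values as deposited, so a difference of 1 is a doubling, and each gene was represented by its probe set of highest mean. Array medians ran from 7.15 to 7.24. Replicate 4 of both groups stood apart on the first principal component (25.7 in miR-143 and 26.7 in mock, while replicates 1 to 3 scored −18.8 to −4.4 in miR-143 and −10.5 to −4.3 in mock). This array was also the highest of its group in 8 of the 9 members in miR-143 and in 8 of 9 in mock, with UTP15 as the exception in both. Values are therefore given without replicate 4 too, and as differences between arrays of the same replicate number (called pairs below). The colorectal epithelial markers EPCAM, CDH1, KRT8, KRT18 and KRT19 lay at 10.58 or higher on every array, and VIL1, CDX2 and LGALS4 at 6.87 to 8.66. The 7 markers of other cells overlapped with these last 3, from 6.63 for PTPRC, a marker of leukocytes, to 8.29 for COL1A1, a collagen of fibroblasts. HK2, which the study followed up as a miR-143 target, had a log2 fold change of −0.36 and was lower in 4 of 4 pairs, although its groups overlapped.

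UTP18, a WD-repeat protein of the UTP-B module, was the member with the lowest miR-143 values relative to mock. Its values were 11.44, 11.57, 11.32 and 11.64 in miR-143 replicates 1 to 4, against 12.08, 11.92, 11.97 and 12.38 in the mock replicates. Every miR-143 array thus lay below every mock array, with 0.28 between the highest miR-143 and the lowest mock value. The mean ± SD of 4 arrays was 11.49 ± 0.14 with miR-143, against 12.09 ± 0.21 in mock. The log2 fold change of −0.60 (standard error 0.11) corresponded to 66.2% of the mock level and was the 8th most negative of 19752 genes. These values chose the gene, so they are a description and carry no test. The 4 pair differences were −0.64, −0.35, −0.65 and −0.74, and pair 2, the smallest, set the second highest miR-143 array against the lowest mock array. The fold change was −0.50 without mock replicate 4, −0.65 without miR-143 replicate 4 and −0.55 without replicate 4 of both groups. A second probe set of UTP18 lay near the array median, at 6.85, 7.02, 7.09 and 6.66 with miR-143 against 7.24, 7.02, 7.34 and 6.83 in mock. Its groups overlapped, its log2 fold change was −0.20, and pair 2 did not differ. UTP18 lies at chr17:51260546-51297933 (GRCh38.p14).

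**Figure D1:**
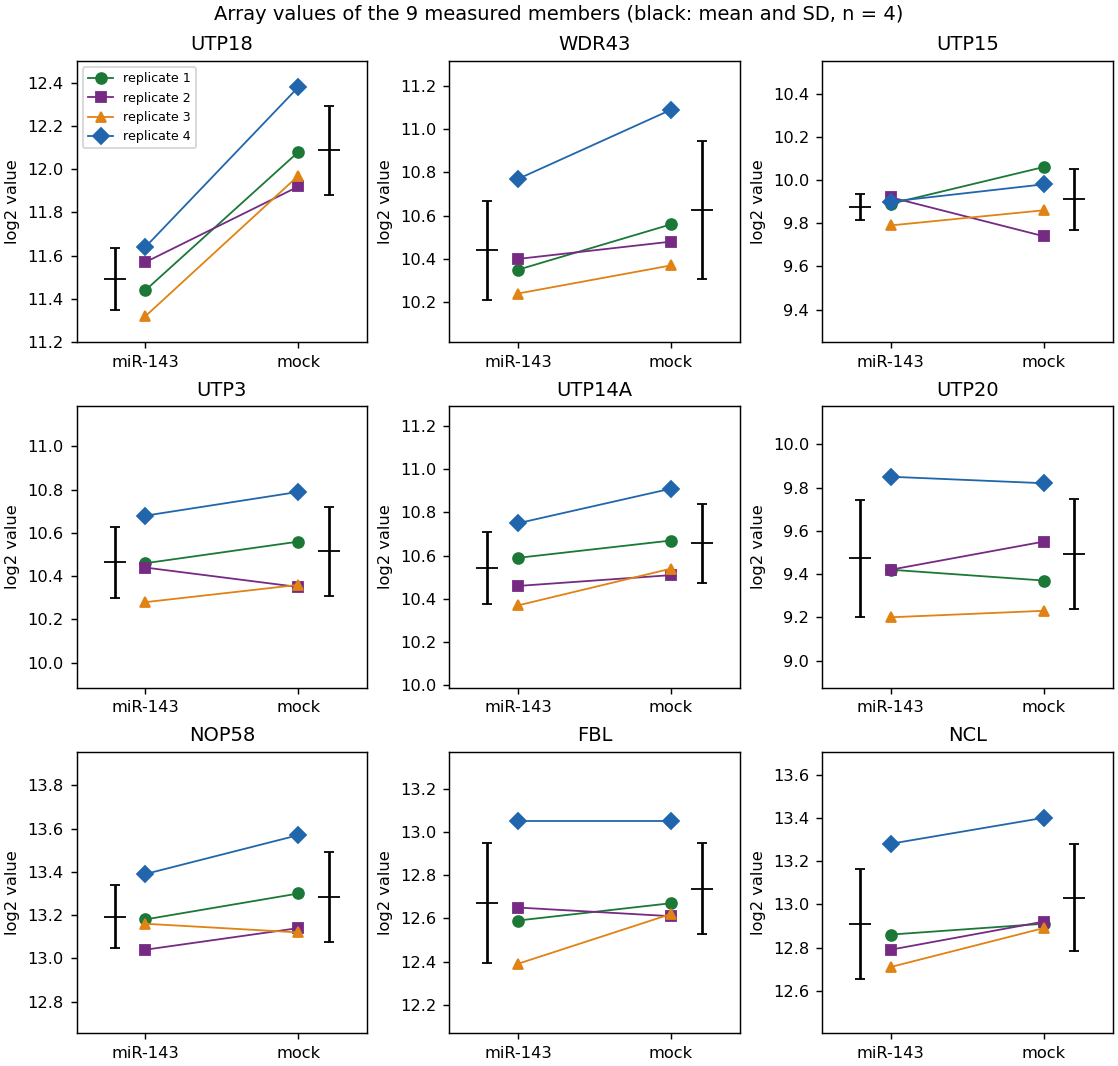
Log2 values of the 9 measured members on each array (vertical axis, the same span in each panel), with miR-143 left of mock, lines joining arrays of the same replicate number, and black marks for the mean and SD of 4 arrays. Only UTP18 has all miR-143 arrays, at 11.32 to 11.64, below all mock arrays, at 11.92 to 12.38, while replicate 4 is the highest array of both groups in every panel but that of UTP15.

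WDR43 and UTP15, the members of the UTP-A module, differed less between the groups. WDR43, a WD-repeat scaffold protein, had 10.35, 10.40, 10.24 and 10.77 with miR-143 against 10.56, 10.48, 10.37 and 11.09 in mock. Replicate 4 was high in both groups, and the groups overlapped with and without it, yet each miR-143 array was below its own mock partner, by 0.08 to 0.32. Its log2 fold change was −0.18 (standard error 0.16), or 88.1% of mock, the nearest to UTP18 among the members. It depended on replicate 4, being −0.03 without mock replicate 4, −0.29 without miR-143 replicate 4 and −0.14 without both. UTP15, another WD-repeat protein of the module, had 9.89, 9.92, 9.79 and 9.90 with miR-143 against 10.06, 9.74, 9.86 and 9.98 in mock. Its groups overlapped throughout, and its log2 fold change was −0.03 (standard error 0.08). Its second probe set gave −0.03 too.

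UTP3, UTP14A and UTP20 act at other points of small subunit assembly, and all 3 had overlapping groups. UTP3, the human counterpart of yeast Sas10, had 10.46, 10.44, 10.28 and 10.68 with miR-143 against 10.56, 10.35, 10.36 and 10.79 in mock. Its log2 fold change was −0.05 (standard error 0.11), with 3 of 4 pairs lower. UTP14A, whose yeast counterpart activates a helicase that frees U3, had 10.59, 10.46, 10.37 and 10.75 with miR-143 against 10.67, 10.51, 10.54 and 10.91 in mock. All 4 pairs were lower, by 0.05 to 0.17, and the log2 fold change was −0.11 (standard error 0.11). Its second probe set lay near the array median and had 0.08, the opposite sign. A further probe set is shared with the near-identical UTP14C and was not used. UTP20, a large scaffold protein, had 9.42, 9.42, 9.20 and 9.85 with miR-143 against 9.37, 9.55, 9.23 and 9.82 in mock. With 2 pairs lower and 2 higher, its log2 fold change of −0.02 (standard error 0.16) was the smallest of the members.

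NOP58 and FBL, the measured core proteins of box C/D particles, had high values and small differences. NOP58 had 13.18, 13.04, 13.16 and 13.39 with miR-143 against 13.30, 13.14, 13.12 and 13.57 in mock. Its groups overlapped, and the difference in means was −0.09 on the log2 scale (standard error 0.11). FBL, the methyltransferase of these particles, had 12.59, 12.65, 12.39 and 13.05 with miR-143 against 12.67, 12.61, 12.62 and 13.05 in mock. Its fold change of −0.07 (standard error 0.14) came mostly from pair 3, at −0.23, while pairs 1, 2 and 4 lay between −0.08 and 0.04. NCL, nucleolin, an abundant RNA-binding protein of the nucleolus, had 12.86, 12.79, 12.71 and 13.28 with miR-143 against 12.91, 12.92, 12.89 and 13.40 in mock. All 4 of its pairs were lower, by 0.05 to 0.18, and its log2 fold change was −0.12 (standard error 0.15). The second NCL probe set, near the array median, had −0.03.

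**Figure D2:**
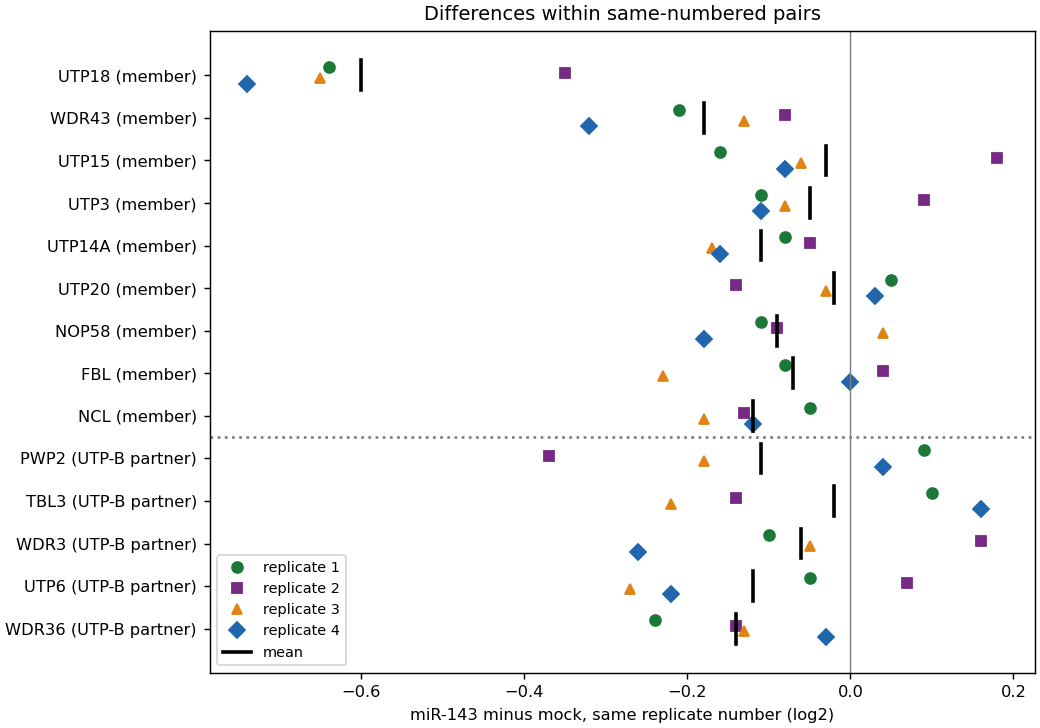
Difference in log2 value between the miR-143 and the mock array of the same replicate number (horizontal axis, points coloured by number) for the 9 members and the 5 other UTP-B genes, with the mean as a black bar. The 4 points of UTP18 lie at −0.74 to −0.35. Those of the other members lie at −0.32 to 0.18 and those of its UTP-B partners at −0.37 to 0.16.

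Over the members together, UTP18 was the 1 gene whose groups were apart. Of the 9 members 1 (UTP18) had all 4 miR-143 arrays below every mock array, which held for 1.24% of all genes. A log2 fold change below −0.14, the study's limit of 1.1-fold, was found in 2 (UTP18 and WDR43), against 5.4% of all genes. A lower value in all 4 pairs was found in 4 (UTP18, WDR43, UTP14A and NCL), against 10.9% of all genes. UTP18 was chosen by its fall in these arrays and raises each of these counts. Among the 8 other members they were 0, 1 and 3. In the comparison by limma without pairs, 0 of the 9 were called lower and 0 higher, as for all genes (0% lower and 0% higher), where 477 genes had an unadjusted p under 0.05. With the replicate number as a pair limma called 1 member lower, UTP18, and 0 higher, while over all genes it called 0.623% lower and 0.167% higher. The share of called genes draws on the comparison by which UTP18 was chosen, so nothing is read from the count of UTP18 itself. The other 8 members had a median log2 fold change of −0.077, and all 8 were negative, beside a median of −0.009 and 55.6% negative over all genes. A missed call does not show that they were unchanged, since their standard errors were 0.08 to 0.16 without pairs and 0.05 to 0.06 with pairs.

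The sign of the small differences depended on single arrays and on the scaling. UTP18 is given beside them for its size only, since its groups do not overlap and leaving out an array could not turn its sign. Without mock replicate 4 the other 8 members split into 3 negative and 4 positive, with 1 within 0.005 of 0, and ran from −0.03 to 0.09, while UTP18 was at −0.50. Without miR-143 replicate 3, which was the lowest miR-143 array in 8 of the 9 members, they were 4 negative and 3 positive with 1 within 0.005 of 0. After cyclic loess between arrays they were 3 negative and 3 positive with 2 within 0.005 of 0, from −0.13 to 0.02, and UTP18 was at −0.53. Without replicate 4 of both groups all 8 were negative again, from −0.14 to −0.02. WDR43 and UTP14A stayed negative under each of these settings.

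**Figure D3:**
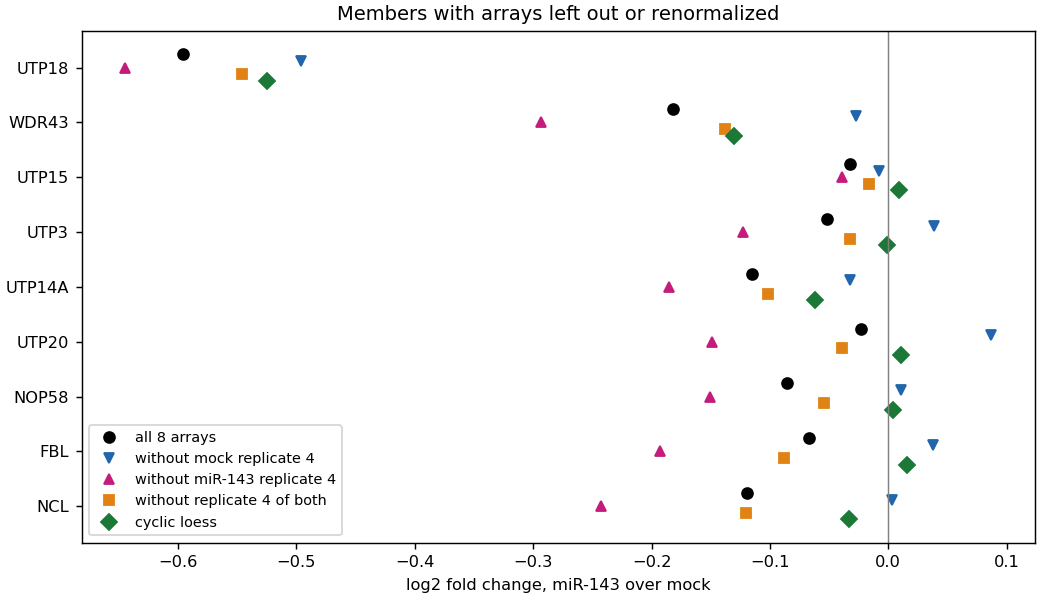
Log2 fold change, miR-143 minus mock (horizontal axis), for the 9 members over all 8 arrays, without replicate 4 of one or both groups, and after cyclic loess. UTP18 stays between −0.65 and −0.50, whereas UTP3, UTP20, NOP58 and FBL have a positive value without mock replicate 4.

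The partners of UTP18 in the UTP-B module were measured as well. PWP2, TBL3, WDR3, UTP6 and WDR36 had log2 fold changes of −0.11, −0.02, −0.06, −0.12 and −0.14, and limma called 0 of the 5 without pairs (adjusted p = 1 for each; 0 of them had an unadjusted p under 0.05) and 0 with pairs (adjusted p = 0.404 to 0.95). WDR36, a WD-repeat protein, was the lowest, with 9.44, 9.52, 9.34 and 10.12 with miR-143 against 9.69, 9.67, 9.47 and 10.16 in mock, and was lower in 4 of 4 pairs (adjusted p = 0.404 with pairs). UTP6 had 11.06, 11.01, 10.79 and 11.20 with miR-143 against 11.12, 10.94, 11.06 and 11.42 in mock (adjusted p = 0.603 with pairs). PWP2 had 9.22, 8.94, 8.93 and 9.75 with miR-143 against 9.13, 9.30, 9.10 and 9.71 in mock, with 2 pairs lower and 2 higher (adjusted p = 0.703 with pairs). Groups overlapped in all 5. Without mock replicate 4 their values ran from −0.02 to 0.04.

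In the wider list 2 genes, NOL11 and UTP23, were called lower in the comparison with pairs. The list held 105 genes of ribosome biogenesis beside the members, sorted by complex, and 98 were measured. Limma called 0 of them without pairs, where 2 were lower and 0 higher at an unadjusted p under 0.05, beside 336 lower and 141 higher of all 19752 genes. With pairs it called 2 of the 98 lower and 0 higher, beside 0.623% lower and 0.167% higher over all genes. NOL11, which belongs to the UTP-A module and is needed for transcription and processing of ribosomal RNA, had 12.09, 12.18, 11.97 and 12.30 with miR-143 against 12.54, 12.30, 12.42 and 12.73 in mock. Its highest miR-143 value only just reached the lowest mock value, both near 12.30, and its log2 fold change was −0.36, with a standard error of 0.06 in the paired comparison. The adjusted p of limma was 0.0253 with pairs and 1 without. UTP23, a protein of early small subunit processing first known from yeast, had 10.10, 10.03, 9.98 and 10.22 with miR-143 against 10.35, 10.21, 10.35 and 10.56 in mock. Its log2 fold change was −0.29, with a standard error of 0.05 in the paired comparison, and the adjusted p of limma was 0.0337 with pairs and 1 without. With a pair left out the adjusted p of NOL11 was 0.129, 0.0154, 0.156 and 0.157 without pair 1, 2, 3 and 4, and that of UTP23 was 0.0687 to 0.195. The 3 other probe sets of UTP23 had log2 fold changes of −0.18, −0.09 and −0.09.

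The list as a whole had a median slightly below that of all genes. Of the 98 genes 77 were negative and 21 positive, with a median of −0.070 and values from −0.36 for NOL11 to 0.08 for DDX49, a helicase. ESF1, a small subunit factor, was at −0.33 and was not called with or without pairs. A log2 fold change below −0.14 was found in 17 of the 98, beside 5.4% of all genes. Above 0.14 there were 0, beside 350 of 19752. Lower in all 4 pairs were 19 of the 98, beside 10.9% of all genes. Higher in all 4 were 0, beside 1292 of 19752. These counts rest on all 8 arrays. By complex the median was −0.097 for 4 UTP-A genes, −0.105 for 5 UTP-B genes, −0.100 for 2 box C/D proteins and −0.061 for 3 genes of the MPP10 complex. It was −0.054 for 32 other small subunit factors, −0.105 for 3 proteins of box H/ACA particles and −0.084 for 35 large subunit factors. These particles guide pseudouridylation. For 14 nucleolar chaperones and genes of RNA polymerase I the median was −0.041. Apart from NOL11 and UTP23 the gene of lowest p without pairs on the lower side was TAF1A, a subunit of the selectivity factor of RNA polymerase I, at −0.16 (adjusted p = 0.495 with pairs). On the higher side those of lowest p without pairs were POLR1A, the largest subunit of RNA polymerase I, at 0.07, DDX49 at 0.08 and PDCD11, the human counterpart of yeast Rrp5, at 0.06 (adjusted p = 0.714, 0.802 and 0.854 with pairs). These medians also moved with mock replicate 4. Without that array the median of the 98 genes was 0.008 with 43 negative, after cyclic loess −0.020 with 59 negative, and without replicate 4 of both groups −0.079 with 83 negative. The medians of all genes under the same settings were −0.003, 0.003 and −0.014.

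**Figure D4:**
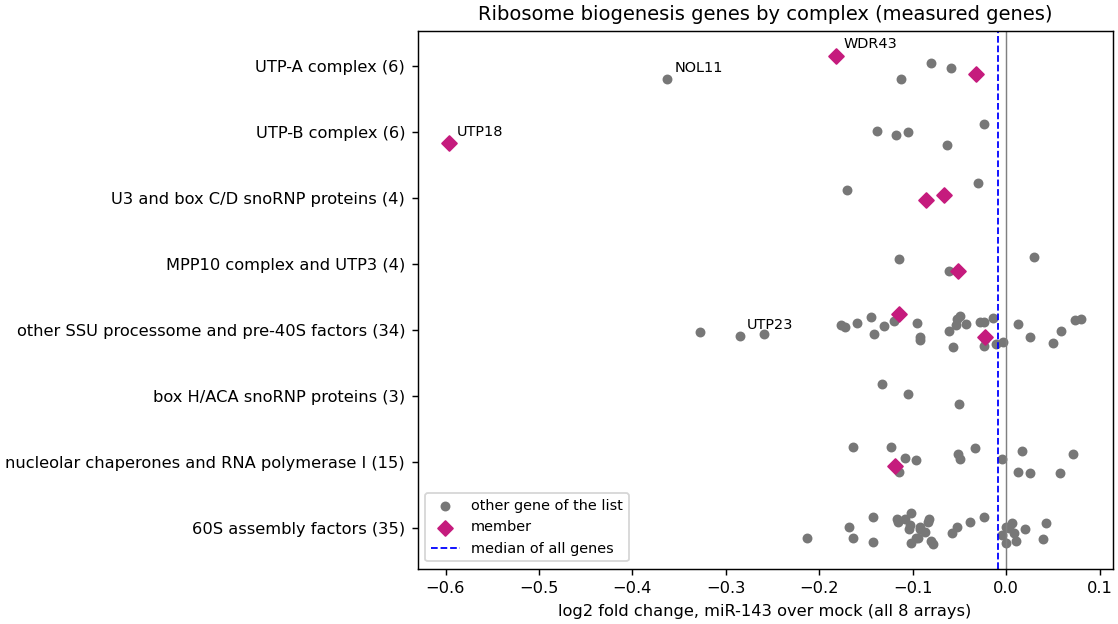
Log2 fold change, miR-143 minus mock, over all 8 arrays (horizontal axis) for the measured genes of 8 groups of ribosome biogenesis genes, with members as diamonds, other genes as grey points and the median of all genes, −0.009, as a dashed line. Points are spread vertically within a group only to separate them. UTP18 lies at −0.60, NOL11 at −0.36 and UTP23 at −0.29, and the other genes of the list lie between −0.33 and 0.08.

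The 5 genes whose pattern over the 8 arrays was most like that of UTP18 were sought among all genes. None was a member or on the list. Members and list make up only 9 and 98 of 19752 genes, so nothing is read from their absence. By Pearson's r across the 8 arrays, given as a description, they were EAPP (0.990), CDC26 (0.989), RWDD4 (0.989), DUBR (0.987) and ZWILCH (0.985). All 5 had every miR-143 array below every mock array, which held for 1.24% of all genes, with log2 fold changes of −0.34, −0.40, −0.52, −0.16 and −0.78. The groups of UTP18 are themselves apart, so a choice by likeness to it favours such genes, and nothing is read from this count. The other 8 members had an r with UTP18 of 0.406 for UTP20 to 0.717 for WDR43, and the UTP-B partners one of 0.352 for TBL3 to 0.709 for UTP6. The 8 arrays share the step between the groups and the high replicate 4, so these values mix both.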

How the data were processed

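The deposited file holds log2 values per probe set and array, produced by the authors by RMA with affy, per the submitters' processing notes (versions are not given in the sources used here). Probe sets were named from GEO's platform annotation and updated to RefSeq symbols (GRCh38.p14) by Entrez identifier or older symbol. Of 54675 probe sets, 41091 carried 1 symbol. For each of 19752 genes the probe set of highest mean was kept. Groups were compared with limma 3.58.1 in R 4.3.3 (lmFit and eBayes, two-sided), with Benjamini-Hochberg adjustment over all genes and a threshold of 0.05, without and with the replicate number as a block. Tables and plots were made with Python 3.11.15, pandas 2.3.3 and matplotlib 3.10.9. The fit without pairs was tested on simulated arrays with independent noise, which held no pairs and no shift of replicate 4. The fit with pairs was not tested in this way. An array has no read depth, so the number of arrays limits the precision.

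The labels number the replicates 1 to 4 in both groups and do not say what a number stands for. After subtraction of the group mean, arrays of the same number correlated at 0.11, 0.17, 0.58 and 0.81 across genes for numbers 1 to 4, each above the limit of 0.1, so the numbers were treated as pairs. The first is close to the limit. Mock replicate 1 correlated at 0.54 and 0.49 with miR-143 replicates 2 and 3, above the 0.11 with its own number, and miR-143 replicate 1 at 0.25 with mock replicate 3. The 0.17 of number 2 was below the 0.32 of miR-143 replicate 2 with mock replicate 3. Arrays of unlike number among replicates 1 to 3 correlated at 0.17 to 0.54, so the limit does not tell pairs from other arrays there. Every result given by pairs rests on this reading of the numbers.

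The members, the gene lists and the tests were chosen with earlier results of these data known. Named are every member, the 3 listed genes of lowest p on each side, those called with pairs, the UTP-B genes, the 5 genes most like UTP18, and HK2. The UTP-B partners were added to that rule after their values were seen. ESF1 is named for its fold change, the most negative of the other small subunit factors. Leaving out arrays or pairs, another scaling, array weights, filters on dim or low-variance genes and other probe sets were tried as alternatives. The raw scans were not used here, so the background correction was not varied.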

Additional observations from a re-analysis of the deposited data

Results flagged for a closer look

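In 3 of 26 groups of 4 arrays, 1 for each group and member probe set, 1 array stood apart from the other 3 by Dixon's ratio, where chance flags about 1 in 20. All 3 were replicate 4, which already stood apart on the first principal component. The 26 groups share the same 8 arrays and are not independent, so nothing is read from the count beside chance. FBL was at 13.05 in mock replicate 4 against 12.61 to 12.67 in the other mock arrays. NCL was at 13.40 in mock replicate 4 against 12.89 to 12.92. The second NCL probe set, near the array median, was at 7.02 in miR-143 replicate 4 against 7.12 to 7.14.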

How the results depend on the processing

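Without pairs limma called 0 genes over all 8 arrays. With the replicate block it called 123 genes lower and 33 higher, among them 1 member, and with each pair left out in turn 33 to 68 lower and 9 to 16 higher, with UTP18 as the 1 member in each of these fits. Without replicate 4 of both groups and without pairs there were 30 lower and 13 higher genes and 1 member. Cyclic loess gave 31 and 21 with 1 member, cyclic loess with the replicate block, which was added after seeing the data, gave 78 and 51 with 1 member, and array weights gave 36 and 20 with 1 member. With all probe sets tested 1 was lower, and it was no member. Wherever a member was called it was UTP18, and none of the other 8 was called in any fit. Without pairs UTP18 was called only with replicate 4 of both groups left out, with cyclic loess or with array weights. UTP18 was chosen by its fall in these same arrays, so its repeated calls are a description. With single arrays left out, median centring, filters on dim or low-variance genes or the mean of a gene's probe sets, 0 genes were called without pairs. The fold change of UTP18 ran from −0.65 to −0.40 over 17 alternatives, the last with the mean of its 2 probe sets, 1 of which lay near the array median. The replicate block moved the count of other ribosome biogenesis genes called lower to 2. The median of the members was −0.086 and ran from −0.185 to 0.003 with single arrays left out. Levels near the array median limit what the second probe sets can show, and the cause of the differences between settings was not tested.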
